A study of Mus musculus with 48 samples.

Results

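To follow what a single amino acid change in NRDE2 does to the transcriptome, RNA-seq of Nrde2D174R mouse embryonic stem cells (mESCs) was compared with that of wild-type (WT) mESCs, with 2 libraries in each group. Every autosomal gene with a mean of at least 0.5 CPM (its reads scaled to the depth of the library) over these 4 libraries was included, which was 13913 genes of the 55335 in the table. Of the other autosomal genes, 22283 had no read in any of the 4 libraries and 14774 were detected below that minimum. The 211 genes just inside the minimum, from 0.5 to 0.55 CPM, had a median log2 ratio of D174R over WT of -0.02, and the 260 genes just outside, from 0.45 to 0.5 CPM, had a median of 0.01.

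The study measured how loss or mutation of NRDE2 and of its partners changes RNA in mESCs. All lines used here have a hybrid 129-C57BL/6 background and grew in serum with LIF and 2i, the inhibitor pair that holds mESCs in naive pluripotency. The WT libraries come from the conditional Nrde2 knockout line without 4-hydroxytamoxifen (4OHT), so their Nrde2 gene is floxed and intact. Nrde2D174R cells carry the point mutation in Nrde2 and were untreated, as were Nrde2d200 cells, whose NRDE2 lacks the first 200 amino acids. Nrde2 KO cells are the conditional line after 100 nM 4OHT for 4 d, which activates Cre, so 4OHT, Cre activity and loss of NRDE2 cannot be told apart in that group. The study lists a single clone for the D174R line, derived from conditional cells with a 3xFLAG-AviTag on NRDE2, and the labels do not say whether the WT libraries carry this tag. The tag, the clone and the mutation therefore cannot be told apart in the comparison with WT. From RNA-seq of tagged and untagged cells, the study reported minor effects only for tags on EIF4A3, CCDC174 and SmE. No label says that the replicates were separate cultures, so the spread between libraries of a group may be technical. The p-values measure this spread as pooled over the groups of all 20 libraries without cycloheximide. Those also include Mtrex knockout and CCDC174-depleted cells with their own WT.

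NRDE2 is a conserved nuclear protein that localizes to nuclear speckles, the nuclear bodies rich in splicing factors. Its best known partner is MTREX, the RNA helicase that hands nuclear RNAs to the exosome, a complex that degrades RNA from its 3′ end. The aspartate changed in D174R lies in the amino-terminal part of NRDE2 that contacts MTREX. The study found that the mutation substantially reduced this interaction, although the mutant protein still cross-linked to MTREX in cells. It also found less NRDE2 protein in the mutant, so weaker contact and a lower protein level cannot be told apart here.

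The mutation was made with a single-stranded DNA donor, which covers exon 4 of the 14 exons of Nrde2 on chromosome 12. The donor matches the minus strand of GRCm38 at chr12:100145864-100146037, and the exon spans chr12:100145870-100146028. Both sequences are shown because they define the designed mutation. Capitals mark the 6 bases that differ, and the sequences run 5′ to 3′ along the transcript.
reference: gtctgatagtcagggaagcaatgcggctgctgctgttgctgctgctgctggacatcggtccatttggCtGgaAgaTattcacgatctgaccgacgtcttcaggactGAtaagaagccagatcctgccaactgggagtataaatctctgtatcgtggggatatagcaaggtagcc
donor: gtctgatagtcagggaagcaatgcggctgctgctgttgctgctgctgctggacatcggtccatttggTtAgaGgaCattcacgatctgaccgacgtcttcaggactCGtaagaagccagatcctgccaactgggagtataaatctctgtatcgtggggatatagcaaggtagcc

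With positions counted from 1 at the 5′ end of the donor, G107C and A108G change a codon from aspartate to arginine (D174R). The other 4 substitutions, C68T, G70A, A73G and T76C, lie in codons 161, 162 and 163 and are synonymous. The gene table counts reads over whole genes and does not show which allele they came from, so the edit itself was not seen in these data.

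Library depth ranged from 28878024 to 33814363 reads in genes. All 26 of the pluripotency markers were measured, and 25 of them exceeded 10 normalized CPM (CPM after division by a library factor) in all 4 libraries, the exception being Gbx2 at 3.53 to 4.06. Summed over the list they reached 8391 to 8706 in WT and 8781 to 9071 in D174R. Markers of other cell types were partly present. Primitive endoderm markers summed to 1608 and 1434 in WT and 1965 and 1856 in D174R, with 5 of 20 above 10 in all libraries, led by Lamc1, Sparc at 369 to 432 and Lama1 at 166 to 227, while Afp and Ttr were at or near 0. Fibroblast markers summed to 1047 and 820 in WT and 1435 and 1157 in D174R, of which Fn1, the fibronectin gene, made up 962 and 743 in WT and 1354 and 1088 in D174R. Vim read 56.2 and 55.0 in WT and 52.4 and 39.3 in D174R, and Dcn, Lum and Postn were at 0 in all 4 libraries. Trophectoderm markers summed to 182 and 177 in WT and 158 and 159 in D174R, and Cdx2 did not exceed 1.00. Neural markers summed to 263 and 254 in WT and 245 and 220 in D174R, and Neurog2 was at 0 in all 4 libraries. The part of other cell types in the results below was not tested, and in bulk RNA fewer cells of a type and less RNA per cell cannot be told apart.

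The mutated gene itself was measured first. Nrde2 stood at 39.7 and 38.2 normalized CPM in the WT libraries and at 41.1 and 38.8 in the D174R libraries. The groups overlapped, and the log2 difference was 0.04 ± 0.09 (SE, adjusted p = 0.867, limma) with a 95% interval from -0.15 to 0.23. In Nrde2 KO it stood at 18.6 and 19.7.

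The genes of the NRDE2 partners moved little as well. Mtrex was at 204 and 196 in WT and at 205 and 186 in D174R, a difference of -0.04 with an interval from -0.23 to 0.16. Ccdc174, which encodes a splicing-associated partner of NRDE2, read 24.2 and 23.1 in WT against 18.9 and 20.6 in D174R, and this difference of -0.26 did not pass the test (adjusted p = 0.238). Eif4a3, the core helicase of the exon junction complex, had a difference of -0.00, Cwc22, a spliceosome protein that recruits EIF4A3, one of -0.04, and Snrpe, a core Sm protein of the spliceosomal snRNPs, one of -0.19. None of these 6 genes reached an adjusted p below 0.01.

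Across the transcriptome, D174R cells differed from WT in few genes, and mostly upward. A gene was called where its adjusted p was below 0.01 and it changed by more than 1 on the log2 scale in either direction. Of the 13913 genes, 32 were called (0.23%), 26 higher in D174R (0.187%) and 6 lower (0.0431%). At any fold change, 56 genes (0.403%) had an adjusted p below 0.01, 44 higher and 12 lower, with a smallest adjusted p of 0.000744. On the same genes and against the same WT libraries, 585 were called in Nrde2 KO (4.2%) and 334 in Nrde2d200 (2.4%).

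**Figure D1:**
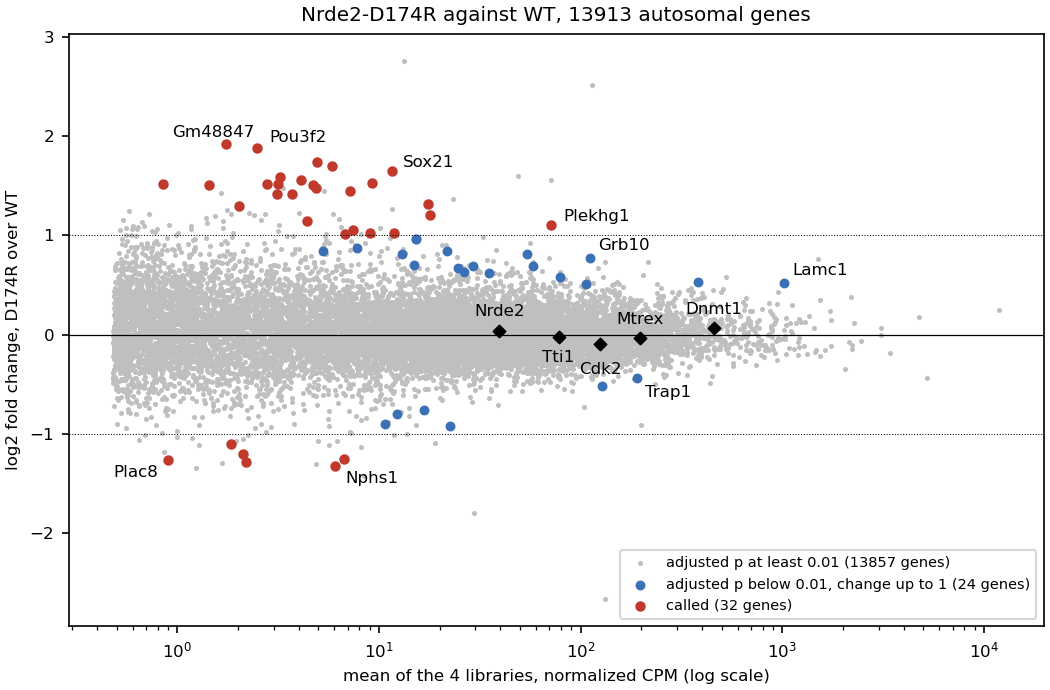
Each point is 1 of the 13913 autosomal genes, with its mean level over the 4 libraries in normalized CPM on a log axis and its log2 fold change of D174R over WT on the vertical axis. The dotted lines mark log2 fold changes of 1 and -1. The 32 called genes, in red, lie mainly at low levels, the 24 genes with an adjusted p below 0.01 and a smaller change are in blue, and Nrde2, Mtrex, Cdk2, Tti1 and Dnmt1, in black, lie near 0.

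Most genes were bounded by the data rather than simply missing the threshold. The log2 fold change was below 0.5 in size for 92.4% of genes, and its 95% interval lay within -1 and 1 for 12686 genes (91.2%), with a median distance of 0.30 from the estimate to either end. The 2 libraries of a group differed by an SD of 0.167 (WT) and 0.141 (D174R) in log2 level over genes above 10 normalized CPM, and WT and D174R libraries by 0.222 to 0.284. D174R libraries differed from Nrde2d200 libraries by 0.275 to 0.314 and from Nrde2 KO libraries by 0.373 to 0.395.

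The calls required all 4 libraries. Without D174R replicate 1 or without D174R replicate 2, 0 genes were called by limma, with 1468 and 1679 genes at an unadjusted p below 0.05. Without WT replicate 1 there was 1 call and without WT replicate 2 there were 2. Each of the 32 genes kept its direction in every such fit. That could hardly have been otherwise, because their D174R and WT libraries do not overlap. With all libraries, edgeR and DESeq2 on the recovered reads each called 31 of the 32 in the same direction, among 36 and 67 of their own calls over the same 13913 genes.

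Among the genes that rose in D174R were 4 transcription factors of early lineages, all at low levels in WT. Pou3f2, a POU factor of neural development, read 0.636 and 1.25 normalized CPM in WT and 4.42 and 3.6 in D174R. These values rest on 22 and 51 reads in WT and on 169 and 134 in D174R, and the log2 change was 1.88 ± 0.26 (SE, adjusted p = 0.00185, limma). Sox21, a SoxB2 factor that counteracts SoxB1 activators such as SOX2, was the most abundant of the 4. It stood at 5.03 and 5.98 in WT and at 17.2 and 18.2 in D174R, a change of 1.65 ± 0.26 (adjusted p = 0.00405). Bhlhe22, a basic helix-loop-helix repressor of neural cells, rose from 0.607 and 0.637 to 1.99 and 2.5. Gata3, which acts in trophectoderm and T cells, rose from 1.53 and 1.42 to 5.51 and 4.43, a change of 1.59 ± 0.25 (adjusted p = 0.00405). Of the 13 trophectoderm genes that passed the filter, Gata3 alone passed the test, and their median change was -0.16. The 7 neural genes of the fixed list, which holds neither Pou3f2 nor Sox21, had a median of -0.24 and no member past the test.

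Several channel, receptor and transporter genes rose. Slc5a1, the sodium-glucose cotransporter, had the smallest adjusted p of all genes. It measured 3.76 and 3.67 in WT and 10.8 and 10.4 in D174R, a change of 1.45 ± 0.17 (adjusted p = 0.000744). Its gene lies at chr5:33104219-33162870. Grin2a, a subunit of the NMDA-type glutamate receptor at chr16:9567898-9995560, measured 1.68 and 1.35 in WT and 4.73 and 4.81 in D174R (1.52 ± 0.19, adjusted p = 0.00117). P2rx7, an ATP-gated cation channel, stood only just past the fold limit, with 5.09 and 3.82 in WT against 9.38 and 8.95 in D174R and a change of 1.01. Ddr2, a receptor tyrosine kinase for fibrillar collagen, read 3.93 and 5.34 in WT and 12.3 and 15.2 in D174R (1.53 ± 0.24). Naalad2, a membrane peptidase of the glutamate carboxypeptidase family, rose from 2.23 and 3.09 to 9.83 and 8.38. H2-Eb1, the beta chain of a class II histocompatibility molecule, rose from 2.40 and 2.47 to 8.60 and 6.04.

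Genes of cell adhesion and of the cytoskeleton formed another part of the list. Cdh4, which encodes R-cadherin, had the third largest change, from 1.88 and 2.40 in WT to 8.0 and 7.36 in D174R (1.74 ± 0.29, adjusted p = 0.00504). Ank2, the membrane adaptor ankyrin B, stood at 10.5 and 11.0 in WT and at 23.8 and 26.6 in D174R (1.21 ± 0.18). Myo18b, an unconventional myosin, rose from 1.71 and 2.13 to 5.33 and 5.70, and Limch1, an actomyosin-associated protein, from 1.24 and 1.96 to 4.34 and 4.92. Sgcz, a sarcoglycan, rose from 1.04 and 1.08 to 2.95 and 2.98, and Smtnl1, a smoothelin-like muscle protein, from 4.45 and 5.02 to 11.3 and 9.05. In these 6 genes both D174R libraries exceeded both WT libraries, and lack of overlap in either direction held for 58.2% of all genes.

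Genes of signalling and metabolism and noncoding genes made up the remainder. Plekhg1, a guanine nucleotide exchange factor of small GTPases, was the most abundant called gene, at 49.4 and 41.2 in WT and 108 and 87.4 in D174R (1.10 ± 0.15, adjusted p = 0.00185). Pag1, an adaptor that holds the kinase CSK at the membrane, rose from 6.19 and 5.59 to 12.2 in both libraries, and Stk33, a protein kinase, from 2.02 and 1.84 to 7.29 and 5.18. Fbp2, the muscle isoform of fructose-1,6-bisphosphatase, rose from 8.27 and 11.7 to 22.9 and 27.0, and Fetub, a protease inhibitor of the fetuin family, from 7.37 and 8.08 to 17.8 and 14.3. Spata16, a spermatogenesis gene, was the lowest of all, with 10 and 14 reads in WT and 47 and 57 in D174R.

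The largest increase belonged to a noncoding RNA. Gm48847, a lincRNA at chr12:70478615-70493247, read 0.491 and 0.686 in WT and 2.77 and 3.06 in D174R (1.92 ± 0.28, adjusted p = 0.00263), from 17 and 28 against 106 and 114 reads. Gm11427, an annotated pseudogene, and AI662270, a processed transcript, rose by 1.5 and 1.14, but they overlap on the same strand in 12 pairs of exons, so their reads cannot be assigned with certainty and they may count as 1 locus. Gm9732, a predicted gene, had 1.39 and 1.2 in WT and 5.36 and 3.25 in D174R, and its level is uncertain where similar copies of the gene share its reads.

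The 6 genes that fell were expressed at 1 to 10 normalized CPM in WT. Nphs1, which encodes nephrin, a cell adhesion protein of the kidney filter, fell from 9.77 and 7.79 in WT to 3.21 and 3.44 in D174R, a change of -1.33 ± 0.17 (adjusted p = 0.00117). Crb3, a Crumbs protein of apical polarity, stood at 9.89 and 9.31 in WT and at 3.87 in both D174R libraries (-1.26 ± 0.19, adjusted p = 0.00352). Calca, the gene of calcitonin and CGRP, fell from 3.21 and 3.18 to 1.07 and 1.26. Plac8, a small cysteine-rich protein, fell from 1.27 and 1.47 to 0.470 and 0.376, on 18 and 14 reads in D174R. Atp10a, a phospholipid flippase, fell from 2.89 and 3.23 to 1.07 and 1.32, and Igsf10, an immunoglobulin superfamily gene, from 2.43 and 2.82 to 1.10 and 1.07. The 2 D174R libraries lay below both WT libraries in all 6, where lack of overlap in either direction held for 58.2% of all genes.

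**Figure D2:**
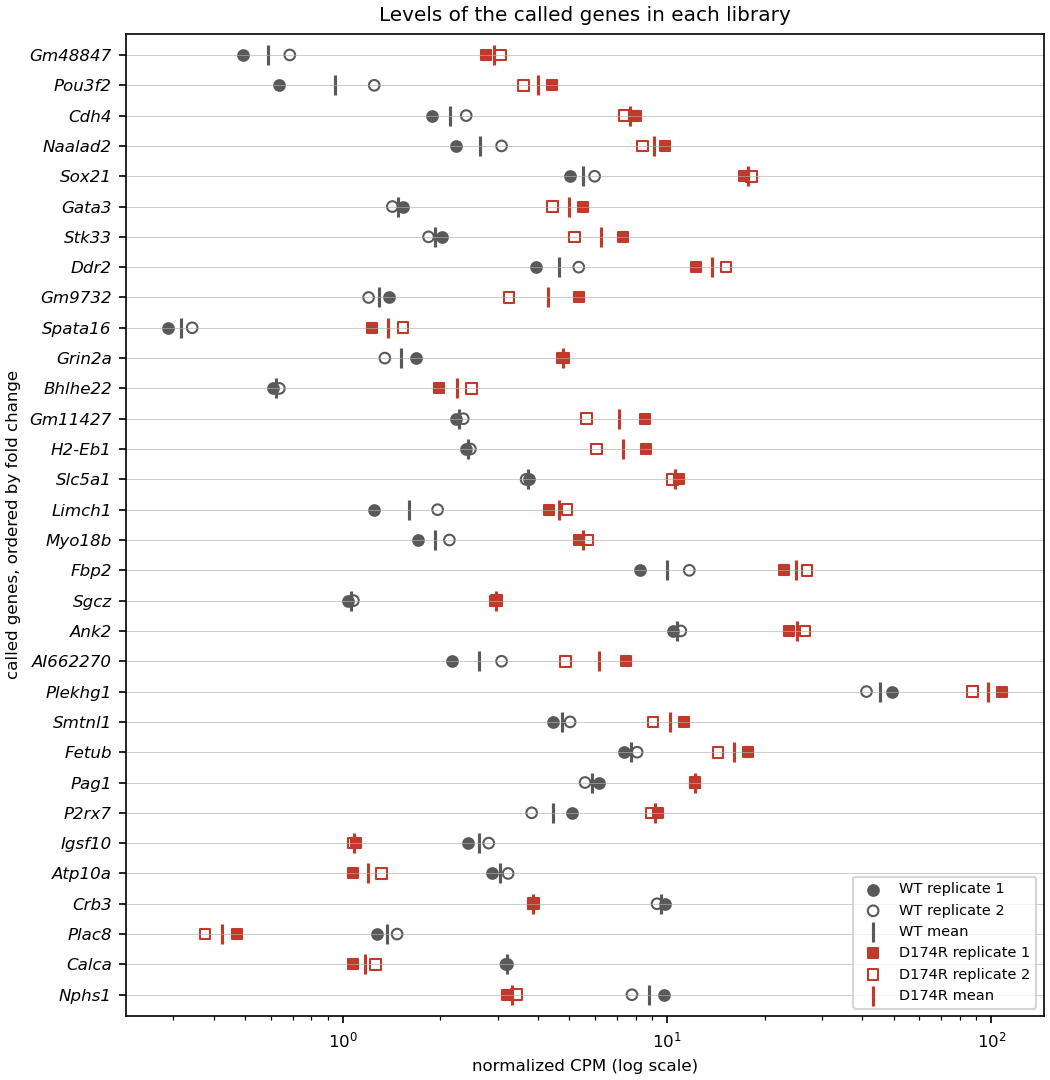
Levels in normalized CPM, on a log axis, of the 32 called genes in each WT library (grey circles) and each D174R library (red squares), with vertical bars at the group means. The WT and D174R libraries do not overlap for any of the 32 genes, from Spata16 at 0.289 to Plekhg1 at 108.

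Called genes were low in expression and long. Their median WT level was 2.63 normalized CPM against 18 over all 13913 genes, and 2 of the 32 exceeded 10 in WT, Plekhg1 and Ank2, against 60.4% of all genes. Their median span was 34732 bases against 20271, and 12 of the 32 (37.5%) spanned more than 100000 bases against 11.3% of all genes. They were protein-coding in 29 of 32 cases, against 88% of all genes. The groups of libraries did not overlap in all 32, which also held for 58.2% of all genes, so lack of overlap in itself marks no gene here.

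Beyond the called genes, other transcripts showed smaller changes with a tight spread. Of the 24 genes with an adjusted p below 0.01 and a log2 change of at most 1, 18 were higher and 6 lower in D174R. Lamc1, the gamma chain shared by most laminins, stood at 892 and 793 in WT and at 1217 and 1189 in D174R (0.52 ± 0.09, adjusted p = 0.00755). It is itself one of the primitive endoderm markers whose sum was higher in D174R. Of the other laminin genes on that list, Lama1 read 206 and 179 in WT and 227 and 166 in D174R, and Lamb1 45.9 and 44.5 against 40.8 and 51.1, so that the groups overlapped for both. Myo10, the motor of filopodia, was at 317 and 305 in WT and 450 in both D174R libraries (0.53, adjusted p = 0.00421). Grb10, an imprinted adaptor that restrains insulin and growth factor receptors, read 87.5 and 76.6 in WT and 138 and 142 in D174R (0.77, adjusted p = 0.00185), and it was the one imprinted gene of 42 measured that passed. Trim35, a tripartite motif ubiquitin ligase, and Lmo7, an actin- and junction-associated LIM protein, rose by 0.51 and 0.58.

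The decreases among abundant genes included 2 mitochondrial proteins. Trap1, the mitochondrial HSP90 chaperone, read 221 and 215 in WT and 160 and 162 in D174R (-0.44 ± 0.07, adjusted p = 0.00461). Ndufa4, a subunit of cytochrome c oxidase, read 148 and 152 in WT and 102 and 108 in D174R (-0.52, adjusted p = 0.00405). Emb, the lactate transporter chaperone embigin, had 30.2 and 28.6 in WT against 15.3 and 15.5 in D174R, a change of -0.92 just short of the fold limit. Cdca7l, a MYC-associated nuclear protein, and Acap1, an ARF6 GTPase-activating protein, fell by 0.76 and 0.80.

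A further 74 genes differed by more than 1 on the log2 scale without being called. The few described here were chosen after their values were seen. The largest differences included noncoding RNAs that varied widely within a group. Rprl3, an RNase P RNA-like gene, read 27.3 and 468 in the WT libraries and 16.5 and 18.9 in D174R. Mir6236 read 43.7 and 24.8 in WT and 158 and 229 in D174R (2.52 ± 0.56, adjusted p = 0.0298). Trh, the precursor of thyrotropin-releasing hormone, was the largest protein-coding difference of these, at 38.8 and 53.6 in WT and 13.7 and 12.2 in D174R, a difference of -1.80 ± 0.36 that missed the threshold (adjusted p = 0.0184).

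Cdk2, Tti1 and Dnmt1, which the study followed as splicing targets of NRDE2, did not pass the test in D174R. Reads were counted over whole genes here, so their splicing was not measured. The study itself reported that the activity of a Cdk2 splicing reporter was insensitive to D174R. Cdk2, the cyclin-dependent kinase of the G1 to S transition, stood at 125 and 133 in WT and at 121 and 120 in D174R. Its difference of -0.10 had a 95% interval from -0.30 to 0.11. Tti1, a scaffold of the TTT complex that stabilizes PIKK kinases, read 83.7 and 73.4 in WT and 76.8 and 77.0 in D174R (-0.03, interval -0.22 to 0.17). Dnmt1, the maintenance DNA methyltransferase, read 442 and 456 in WT and 468 and 470 in D174R (0.06, interval -0.11 to 0.23). D174R and WT libraries overlapped for Tti1 but not for Cdk2 (adjusted p = 0.623) or Dnmt1 (adjusted p = 0.71).

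All 3 of these genes were higher in D174R than in Nrde2 KO. Tti1 was at 29.4 and 29.5 in Nrde2 KO and at 48.6 and 47.7 in Nrde2d200, so D174R exceeded them by 1.38 ± 0.09 (adjusted p = 5.54e-08) and 0.67 (adjusted p = 0.000268). Cdk2 was higher in D174R than in KO by 0.48 (adjusted p = 0.00179) and than in d200 by 0.46 (adjusted p = 0.00622). Dnmt1 was higher than in KO by 0.70 (adjusted p = 1.02e-05), and its difference from d200, 0.31, did not pass (adjusted p = 0.0184). Trap1 was intermediate in D174R: with KO at 53.6 and 57.9 and d200 at 82.6 and 77.8, D174R exceeded them by 1.52 (adjusted p = 1.51e-09) and 1.00 (adjusted p = 1.39e-07).

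Over all genes, D174R differed from Nrde2 KO in 361 calls (2.59%), of which 210 were higher in D174R and 151 lower. With the CPM as deposited, without library factors, the split turned to 143 higher and 217 lower, and the median of all genes moved to -0.11 on the log2 scale. From Nrde2d200 it differed in 170 calls (1.22%), 89 higher and 81 lower, or 71 higher and 114 lower with the CPM as deposited. Without D174R replicate 1 these counts fell to 225 and 52. Without D174R replicate 2 the difference from d200 had 108 calls, without d200 replicate 1 it had 86 and without d200 replicate 2 it had 71.

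The genes called against WT were followed in the other mutants, which share the WT libraries. Cdh4, Stk33 and H2-Eb1 were called higher in D174R than in both of them. Stk33 read 1.00 and 0.949 in KO and 1.23 and 1.14 in d200, below the WT values of 2.02 and 1.84, so that D174R exceeded KO by 2.38 (adjusted p = 2.67e-06) and d200 by 2.15 (adjusted p = 2.92e-05). Cdh4 read 3.43 and 2.83 in KO and 2.69 and 2.23 in d200, and D174R exceeded them by 1.24 and 1.55. H2-Eb1 read 3.36 and 3.13 in KO and 1.68 and 1.92 in d200, with differences of 1.10 and 1.87.

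A further group was called against only one of the other mutants. Gm48847, Spata16, Fbp2 and Sgcz were called higher in D174R than in KO, by 1.44, 1.14, 1.02 and 1.62. Naalad2, Ddr2, Slc5a1 and Fetub were called higher than in d200, by 2.20, 1.72, 1.08 and 1.16. Slc5a1 was nevertheless above the D174R level in KO, at 15.1 and 15.0. In the opposite direction, Gm11427 and AI662270 were far higher in d200, at 38.6 and 33.8 and at 28.9 and 24.7, with log2 differences of D174R from d200 of -2.34 and -2.11.

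The remaining 13 increased genes were called against neither mutant, which does not show equal levels. Ank2 read 14.8 and 13.5 in KO, below D174R by 0.82 (adjusted p = 0.0029), and Myo18b was below D174R in KO by 0.80 (adjusted p = 0.00713), so both passed the test at a change under the fold threshold. Sox21 was lower in KO by 0.95 (adjusted p = 0.0139) and Limch1 lower in d200 by 0.90 (adjusted p = 0.0189), which did not pass. Grin2a read 6.49 and 6.37 in KO and 5.90 and 6.57 in d200, above both D174R libraries. Pou3f2 read 2.77 and 2.43 in KO and 4.64 and 6.26 in d200, on either side of D174R. The D174R level of Plekhg1 differed from KO by -0.09 and from d200 by 0.39 on the log2 scale. These comparisons share the D174R libraries with the one that selected the genes, so the differences from KO and d200 are not independent of the selection.

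Of the genes that fell, Igsf10 and Plac8 were called lower in D174R than in KO, by -1.38 (adjusted p = 6.49e-05) and -1.85 (adjusted p = 5.62e-06). Igsf10 read 3.21 and 3.24 in KO and 0.469 and 0.598 in d200, and Plac8 2.08 and 2.27 in KO and 0.444 and 0.494 in d200. Nphs1 was lower still in both mutants, at 1.45 and 1.85 in KO and 2.02 and 2.00 in d200, and Calca read 0.784 and 0.811 in KO and 1.31 and 0.987 in d200. None of the 6 was called between D174R and d200.

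**Figure D3:**
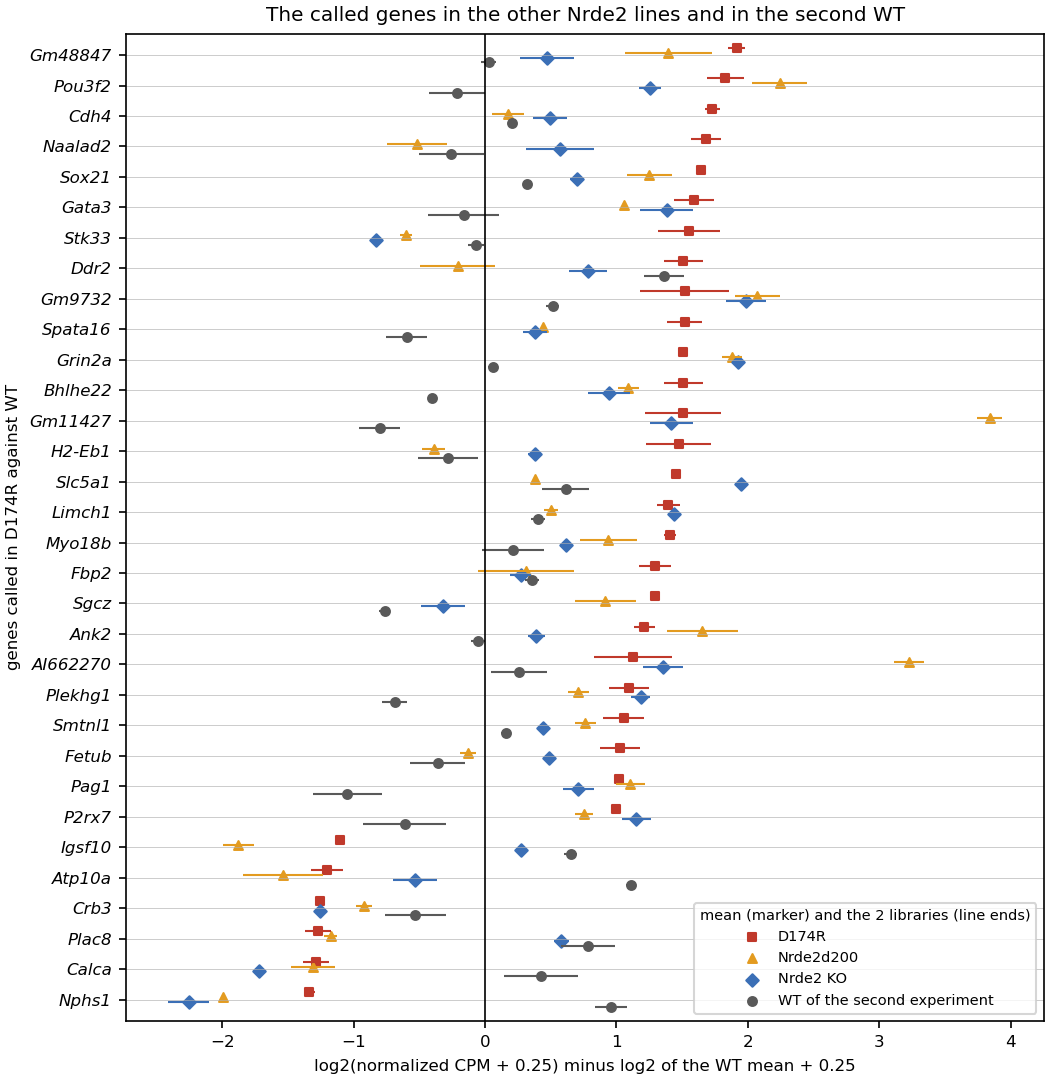
For the 32 genes called between D174R and WT, the log2 difference from the mean of the 2 WT libraries is plotted. Shown are D174R, Nrde2d200, Nrde2 KO and a second pair of WT libraries, drawn as WT of the second experiment. Markers show group means and line ends the 2 libraries. Stk33 lies above 0 only in D174R, and Gm11427 and AI662270 lie farthest from 0 in Nrde2d200. The D174R values selected these genes.

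A second pair of untreated WT libraries of the conditional Nrde2 knockout line gives the size of differences between WT samples. No label names an experiment or batch for it, so second experiment is only a name for this pair. The second WT differed from the first WT in 408 of the genes (2.93%), more than D174R did. D174R differed from this second WT in 684 genes (4.92%), and among them were 20 of the 26 increased genes and 5 of the 6 decreased genes in the same direction. Those calls are not independent of the selection, because the same D174R libraries chose the genes. D174R lay outside all 4 WT libraries for 31 of the 32 genes, against 34% of all genes, which the selection also favoured. The exception was Ddr2, at 11.0 and 13.7 in the second WT and 12.3 and 15.2 in D174R. Pag1 and Atp10a were also called between the second and the first WT, by -1.05 and 1.11. Each of these changes was opposite to that in D174R. The second WT libraries also exceeded the first WT for Lefty2, at 507 and 722 against 227 and 297.

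Gene lists for pathways and cell types were then examined by counts and medians, beside a median of -0.00 over all genes. Of all 13913 genes, 6938 were above WT. Of 34 lists, 3 held a member with an adjusted p below 0.01, and in each it was a single gene described above (Lamc1, Gata3 and Grb10). One list held a called member, the trophectoderm list with Gata3. For the members of the other lists, the values below are given without a passed test.

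For the machinery around NRDE2 the list medians lay between -0.15 and 0.12, and no member passed the test. The 25 exosome and adaptor genes had a median of -0.10, with C1d, a cofactor of the nuclear exosome, lowest at -0.39 and Pabpn1, the nuclear poly(A)-binding protein, highest at 0.23. All 25 had a 95% interval within -1 and 1. The 18 genes of the U1 snRNP and Sm proteins had a median of -0.15 with 6 above WT, from Snrpg at -0.44 to Prpf39 at 0.35. The 9 spliceosome proteins found near NRDE2 had a median of -0.01, from Ccdc174 at -0.26 to Srrm2, a speckle scaffold, at 0.38. The 15 genes of nonsense-mediated decay had a median of 0.12, and Magohb, a core protein of the exon junction complex, read 8.79 and 10.8 in WT and 4.86 and 4.67 in D174R, a difference of -0.99 (adjusted p = 0.0298). The 9 genes of the TTI1 complex and its PIKK clients had a median of -0.05, with Trrap highest at 0.34.

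Genes of the 2C-like state, a rare mESC state that resembles the two-cell embryo, were nearly silent in D174R. Of 34 listed genes, 3 passed the filter. Zscan4d, a telomere-associated marker of this state, read 0.867 and 0.588 in WT and 0.653 and 1.10 in D174R. Zscan4a read 0.549 and 0.367 in WT and 0.523 and 0.645 in D174R, and Gm8300, an EIF1A-like gene, 0.752 and 0.637 against 0.418 and 0.967. The D174R and WT libraries overlapped for all 3. Their median was 0.19 in D174R, 2.93 in KO and 2.53 in d200. D174R was called lower than KO for all 3, against 151 of all 13913 genes. The differences were -3.00 for Gm8300 (adjusted p = 0.000393) and -2.11 for Zscan4a (adjusted p = 0.00885). It was called lower than d200 for 2 of the 3, against 81 of all 13913 genes. At 0.4 to 1.1 normalized CPM the intervals were wide, from -1.13 to 1.00 for Gm8300.

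Cholesterol synthesis genes also set D174R apart from the knockout. The 20 genes had a median of -0.14 in D174R, with 4 of them above WT, against medians of -1.10 in KO and -0.40 in d200. D174R was higher than KO at an adjusted p below 0.01 in 17 of the 20, against 8.65% of all genes in that direction, and 11 were called higher, against 1.51% of all genes, whereas 0 were called higher than in d200, against 0.64% of all genes. Srebf2, the transcription factor that drives the pathway, read 150 and 131 in WT and 83.2 and 78.0 in KO. In D174R it differed from WT by 0.26 (adjusted p = 0.341) and exceeded KO by 1.05 (adjusted p = 3.7e-05). The 20 genes ranged from -0.98 to 0.26 in D174R against WT, so Srebf2 stood at the top. At an unadjusted p below 0.05, 7 of them were below WT and 0 above, against 1177 and 1314 of all 13913 genes.

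No gene of the naive pluripotency list, the Nodal and BMP list or the Wnt list passed the test. The 26 naive pluripotency genes had a median of 0.10, from Lin28a at -0.44 to Sall4 at 0.43, and all 26 intervals lay within -1 and 1. The 16 Nodal and BMP genes had a median of -0.23, where the 2 WT libraries themselves differed by a median of -0.21. Lefty2, a Nodal antagonist, read 227 and 297 in WT and 150 and 127 in D174R (-0.91, adjusted p = 0.0266). In the list of Wnt targets and primitive streak genes, with a median of 0.17, Nkx1-2, a homeobox gene of caudal progenitors, read 14.5 and 17.2 in WT and 7.81 and 7.66 in D174R (-1.01, adjusted p = 0.0349). The 13 primitive endoderm genes had a median of 0.02.

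A few lists leaned one way without a member past the test, where 6938 of all 13913 genes were above WT. Of 28 p53 target genes, 25 were above WT, with a median of 0.30. The WT replicates differed from each other by a median of 0.20 in the same genes. Plk2, a polo-like kinase induced by p53, was highest, at 43.3 and 34.5 in WT and 79.0 and 68.6 in D174R (0.93, adjusted p = 0.0127). Of 60 histone genes, 3 were above WT and the median was -0.30, with -0.42 in D174R replicate 1 and -0.18 in replicate 2. The 17 YAP-responsive genes had a median of 0.26, and Amotl1, an angiomotin that binds YAP, read 28.9 and 25.5 in WT and 50.9 and 47.3 in D174R (0.85, adjusted p = 0.0127). The 81 cytosolic ribosomal protein genes had a median of -0.14, with 14 above WT. The 336 genes of the TEC biotype, mostly unspliced transcripts of unproven status, had a median of 0.28 with 278 above WT, where the WT replicates differed by 0.20. The second WT differed from the first by medians of 0.84 for histone genes, 0.18 for p53 targets and 0.17 for ribosomal protein genes. Those medians were 0.07 for YAP-responsive genes and -0.05 for TEC genes.

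**Figure D4:**
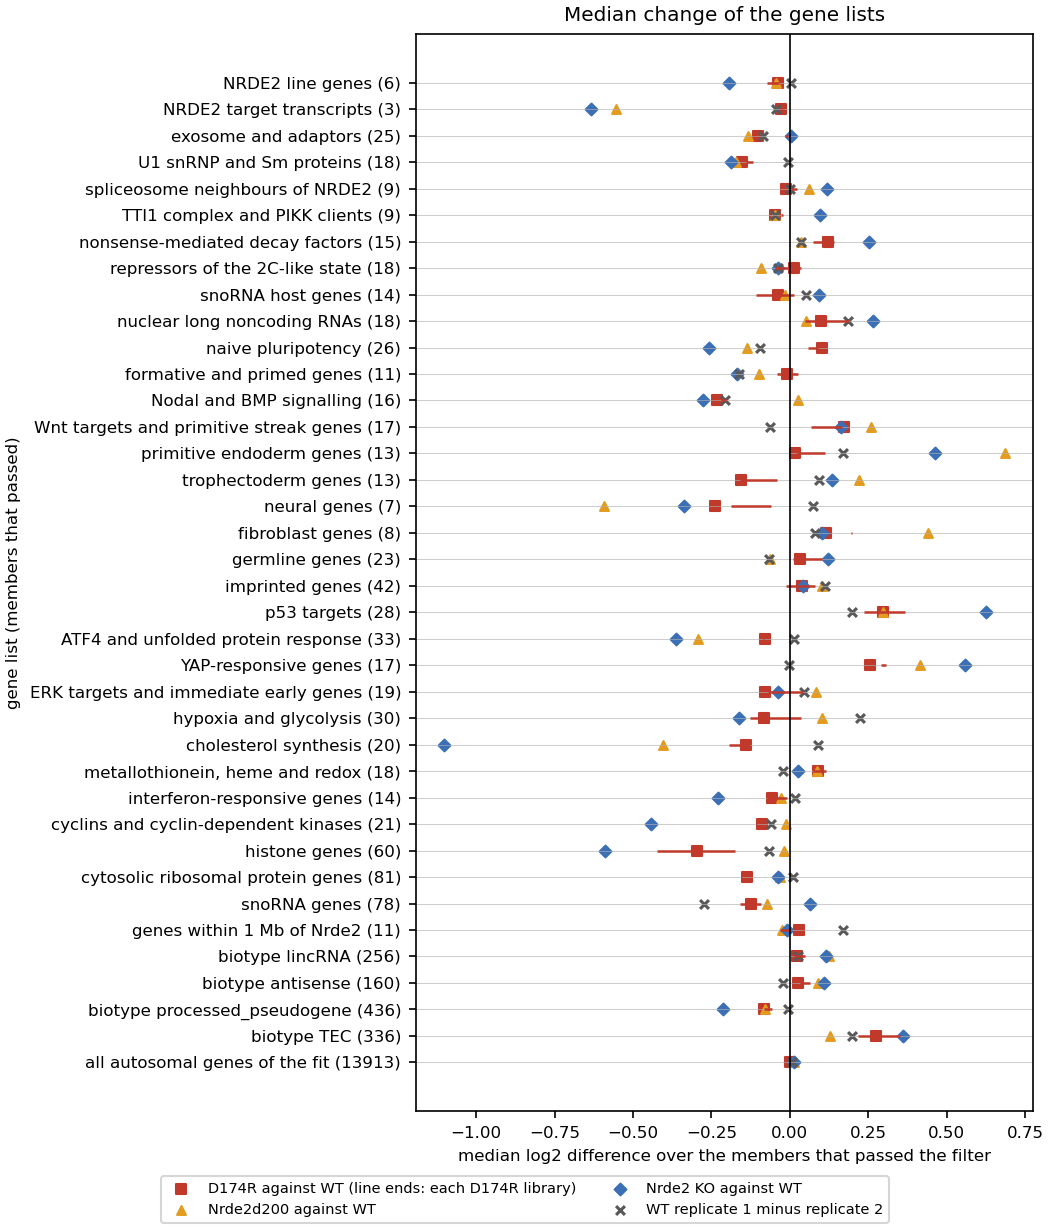
Median log2 difference of each gene list, over the members that passed the filter (their number in brackets), for D174R, Nrde2d200 and Nrde2 KO against WT and between the 2 WT libraries. Squares are medians of the fold changes and red line ends are medians of each D174R library, so a line need not cover its square. The list of 2C genes is not drawn because KO and d200 lie at 2.93 and 2.53. D174R medians lie between -0.30 for histone genes and 0.30 for p53 targets, and KO reaches -1.10 for cholesterol synthesis. The 3 mutants share the WT libraries.

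By position, called genes were spread over the autosomes, with none on chromosomes 6, 15, 18 and 19. Near the edited gene, 11 of the 54 genes within 1 Mb of Nrde2 passed the filter and none had an adjusted p below 0.01. The highest of these was Dglucy, the D-glutamate cyclase gene, with a difference of 0.86 (adjusted p = 0.0371), and the lowest was -0.27. Gm48847 lies on the same chromosome far outside this window.

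Chromosome 6 had the lowest median level in D174R. Its 684 genes had medians of -0.11 and -0.08 in the D174R libraries relative to WT, and 64.8% of them were below WT. Chromosome 13 had medians of -0.07 and -0.06 with 61.2% of 587 genes below WT, and chromosome 1 had 0.07 and 0.08 with 38.3% of 858 genes below. On each of these chromosomes the first WT libraries lay within 0.013 of their mean. The second WT libraries lay at -0.066 and -0.085 on chromosome 6, so a low median there was not particular to D174R. They lay at -0.007 and 0.023 on chromosome 13 and at -0.024 and -0.064 on chromosome 1. Ndufa4, Ccdc174, Magohb, Snrpg and Trh, which were lower in D174R, lie on chromosome 6. Clec4a1, Aass, Cd4 and Gpr85 lie there too and were higher in D174R, by 1.15, 1.09, 1.05 and 1.03, without being called. The copy number of the chromosomes was not measured here, and its part in these levels was not tested.

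**Figure D5:**
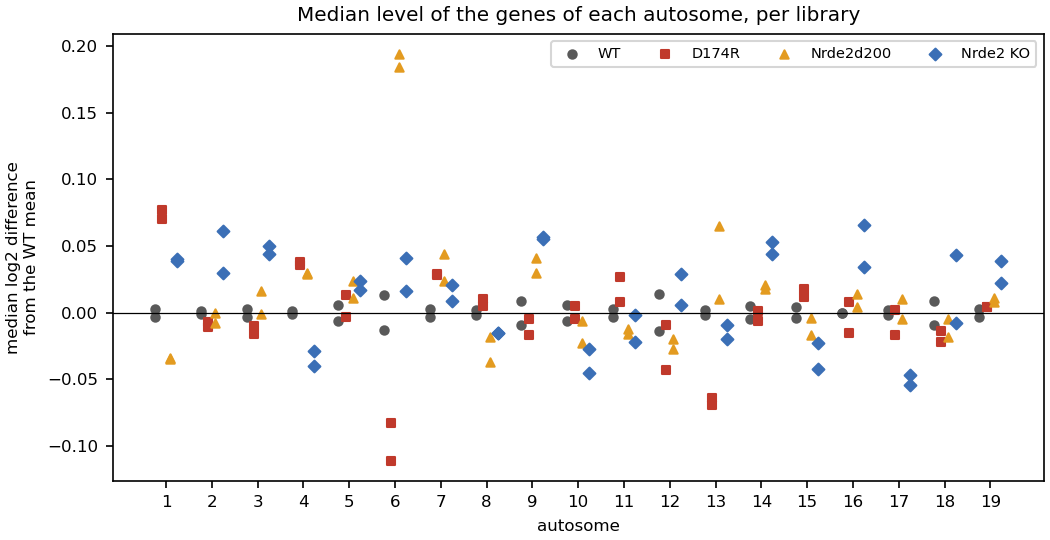
Median log2 difference from the WT mean over the genes of each autosome, with 1 point per library for WT, D174R, Nrde2d200 and Nrde2 KO. D174R libraries lie lowest on chromosome 6, at -0.11 and -0.08, and highest on chromosome 1, and Nrde2d200 lies at 0.18 and 0.19 on chromosome 6. The second WT libraries, at -0.066 and -0.085 on chromosome 6, are not drawn.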

How the data were processed

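Stranded, rRNA-depleted RNA-seq libraries were made from mESCs, 2 per group. The authors mapped them to mm10 with STAR (the submitters' notes name 2.7.0a and 2.7.3a), counted unique, correctly stranded reads in GENCODE M23 genes with featureCounts, and deposited CPM. All values were whole multiples of 1 read (100% within 0.1), so reads were recovered for edgeR 4.0.16 and DESeq2 1.42.0. The 8 libraries with cycloheximide were left out.

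For the main test, each library's CPM were scaled by its median-of-ratios factor and log2(value + 0.25) was fitted with limma 3.58.1 (R 4.3.3, mean-variance trend). The fit held the 14435 genes that reached 0.5 CPM on average in D174R and WT, the 20 libraries without cycloheximide and group as the only term, so all groups share 1 estimate of the spread. Benjamini-Hochberg adjustment covered all these genes. This scale understates changes of low genes.

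Names and positions are those of GENCODE M21 (GRCm38), which held 55154 of 55335 identifiers. Named were the genes of NRDE2 and partners, Cdk2, Tti1, Dnmt1, every called gene, the 5 most abundant genes per direction with an adjusted p below 0.01 and a smaller change, and extremes of gene lists. Members and lists were chosen with earlier results of these data known. The alternatives were 0.1 or 1 added, CPM as deposited, TMM factors, other filters, only the compared libraries, the replicate block, edgeR, DESeq2 (at least 200 reads), the WT of the second experiment and each library left out. The fits were tested on simulated data.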

Additional observations from a re-analysis of the deposited data

How the results depend on the processing

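A fit with a library left out could hardly reverse a called gene, because its D174R and WT libraries do not overlap. Of the 32 genes called between D174R and WT, each kept its direction under every alternative in which it was tested. The count moved to 20 with 1 added before the log, to 68 with DESeq2 on its own filter (16053 genes tested), to 4 without a filter (34955 genes tested), to 64 with only the 4 compared libraries, to 684 with the WT of the second experiment, and to between 0 and 2 with a library left out. The replicate numbers are no stated pairing, and the correlation of the replicate differences of D174R and WT over 14435 genes was 0.26. With the replicate block the count was 38, and 110 with the replicate block in only the compared libraries. The calls against Nrde2 KO moved from 361 to 214 with 1 added and to between 225 and 284 with a library left out, and were 374 with the replicate block. The calls against Nrde2d200 moved from 170 to 103 with 1 added, to 103 without a filter and to between 52 and 108 with a library left out, and were 187 with the replicate block. The log2 fold change of Nupr1, a stress-response gene at -0.33 against WT, reversed to 1.37 against the WT of the second experiment. With a library left out, the lone library was assumed to vary like the other groups. The cause of these shifts was not tested. Genes under 1 CPM rest on few reads. For a typical gene the unadjusted 95% interval reached 0.30 to either side at this number of libraries. An adjusted p below 0.01 needed a larger change than that, so changes above 0.30 can also have been missed.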
